A study of Mus musculus with 2 samples.

Results

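The 9 complement components C1qa, C1qb, C1qc, C1ra, C1s1, C2, C3, C4b and Cfb were followed across the cells of injured mouse tendon. They were chosen by gene symbol, all 9 symbols were found, and they are 9 of the 32285 genes in the count tables. The cells came from the injury site, dissected 14 days after the operation from mice that were 12 weeks old. A library called Control was made from TrkA WT mice and the other, called INMPP1, from TrkA F592A mice, each from a pool of 3 mice. TrkA is the receptor tyrosine kinase for nerve growth factor, and the F592A substitution makes its kinase sensitive to the inhibitor after which the second library is called. The labels do not say whether the TrkA WT mice were given the inhibitor too, or at which dose it was given. Because each genotype is a single pooled library, no test of the genotype was possible. Each value below is given with a 95% interval that covers counting error only, and differences between the libraries are differences between these 2 pools.

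Complement is a cascade of blood and tissue proteins that marks dying cells, debris and microbes for removal. In the classical pathway, C1q binds the target and switches on the serine proteases C1r and C1s, which cleave C4 and then C2 to build an enzyme that cleaves C3. Factor B, encoded by Cfb, takes the place of C2 in the alternative pathway, which amplifies the deposition of C3. Much of the circulating complement is made by the liver, while macrophages are a known tissue source of C1q and fibroblasts are known to secrete several of the other components.

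The 11257 TrkA WT and 8444 TrkA F592A cells had a median of 15870 and 17886.5 UMIs (unique molecular identifiers, 1 for each captured RNA molecule). Each cell was assigned to the list of marker genes on which it scored highest, and no complement component was on any list. The classes are named after those lists, as macrophage-like, stromal-like and so on, and the ending is dropped below. The 7 classes compared were macrophages (2523 TrkA WT and 1670 TrkA F592A cells), stromal cells (6768 and 4860), endothelial cells (541 and 601), mural cells (544 and 569), neutrophils (171 and 126), lymphatic endothelial cells (64 and 66) and T or NK cells (71 and 80). The labels name tenocytes, and the tenocyte gene Tnmd stood at 1182 CPM and 1424 CPM in stromal cells (UMIs scaled to a class total of 1000000). Tnmd is also on the marker list that defined stromal cells, so this level cannot show on its own that tenocytes were present. The libraries shared 764 barcodes, 96 of them among the cells used. CPM values are not scaled to gene length, so a level is compared only with levels of the same gene.

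The components split between 2 sources. All 3 chains of C1q were at least 2-fold higher in macrophages than in stromal cells in both libraries, and the other 6 components were at least 2-fold higher in stromal cells than in macrophages in both libraries. Over all genes that reached 20 CPM in the higher class and had at least 100 UMIs over the 2 classes, the macrophage rule held for 20.0% of genes in TrkA WT and 21.0% in TrkA F592A, and the stromal rule for 25.1% and 24.7%. Under a rule of 4-fold the stromal side lost C3 in TrkA WT and C4b in TrkA F592A.

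**Figure D1:**
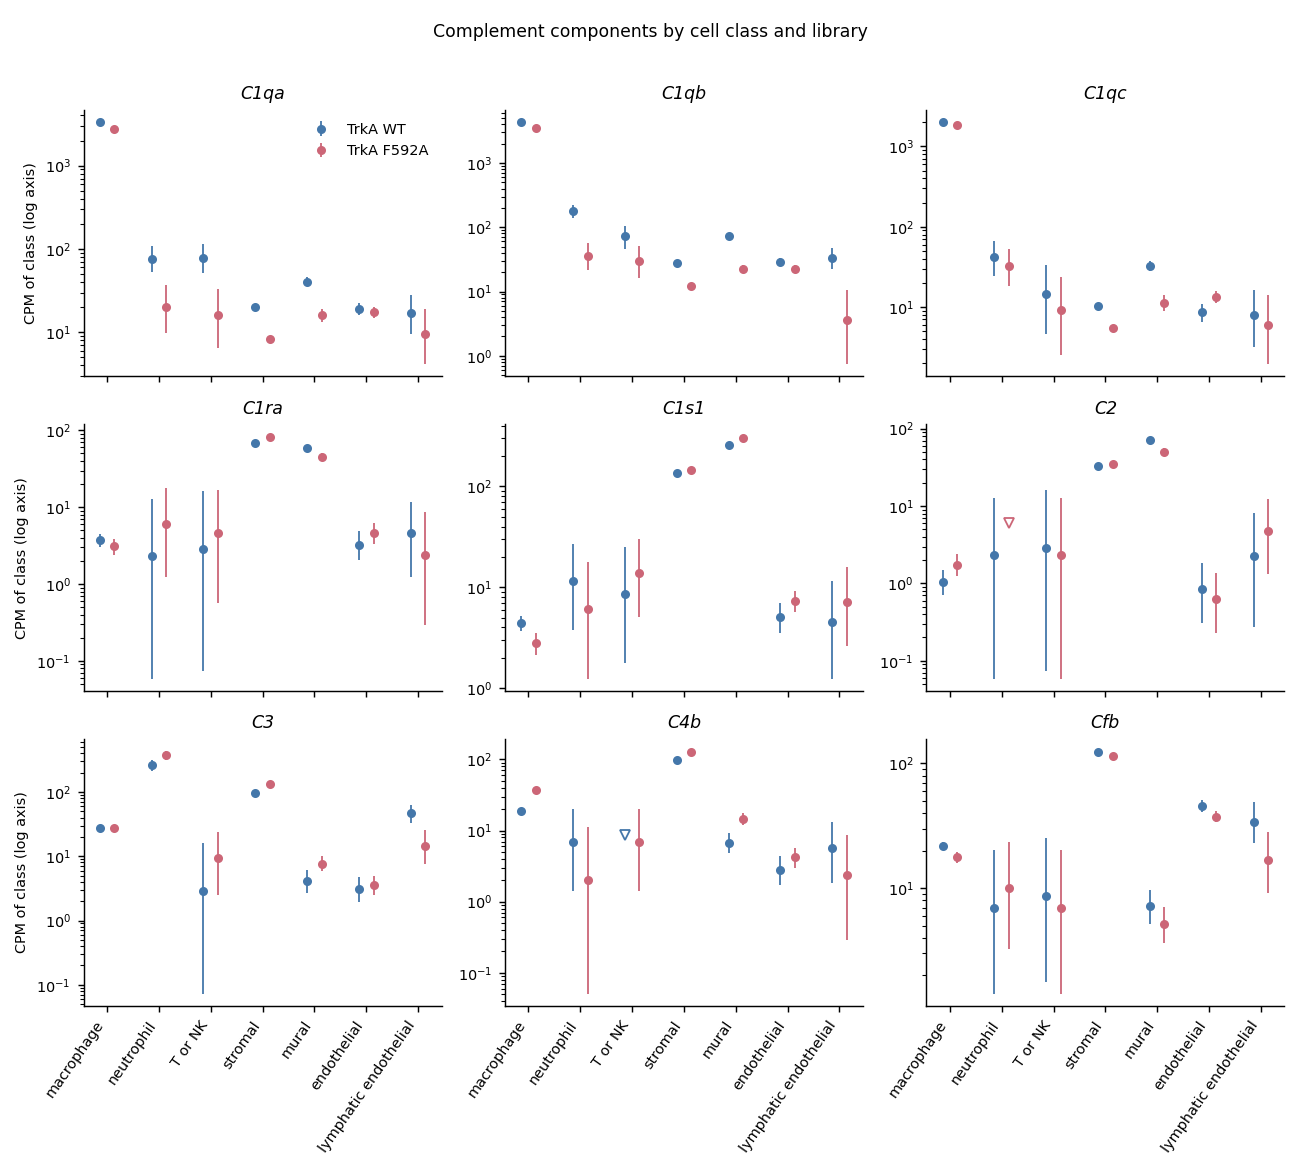
Level of each component (CPM of the class, log axis) in the 7 cell classes. Points are the 2 libraries, TrkA WT in blue and TrkA F592A in red, and bars are exact Poisson 95% intervals of the counts. Open triangles mark a class with 0 UMIs, drawn at the level of 3 counts. The C1q chains stand highest in macrophages, C1ra, C4b and Cfb in stromal cells, C1s1 and C2 in mural cells, and C3 in neutrophils.

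C1q is built from A, B and C chains, encoded by 3 genes that lie side by side on chromosome 4. In the GRCm38 build, C1qa lies at chr4:136895917-136898803, C1qc at chr4:136889804-136893065 and C1qb at chr4:136880129-136886187, all on the minus strand, with 2851 bases between C1qa and C1qc and 3616 bases between C1qc and C1qb. C1qa stood at 3343 CPM in TrkA WT macrophages and 2781 CPM in TrkA F592A macrophages, against 20.0 CPM and 8.22 CPM in stromal cells. C1qb stood at 4355 and 3496 CPM in macrophages and at 27.6 and 12.2 CPM in stromal cells. C1qc stood at 2011 and 1849 CPM in macrophages and at 10.3 and 5.43 CPM in stromal cells. Macrophages were thus 167-fold (interval 161 to 173) above stromal cells for C1qa in TrkA WT and 338.5-fold (318 to 360.5) in TrkA F592A. For C1qb the ratio was 158 and 286, and for C1qc 195 and 341.

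Macrophages held 13.5% of all UMIs in each library but 94.8% of the C1qa UMIs, 94.4% of the C1qb UMIs and 95.4% of the C1qc UMIs in TrkA WT. The shares in TrkA F592A were 96.8%, 96.4% and 96.8%. Most macrophages carried all of the chains. With each cell thinned to 2000 UMIs, 82.6% of 2472 TrkA WT and 81.6% of 1627 TrkA F592A macrophages had at least 1 UMI of each of the 3 chains, and 6.71% and 7.62% had no UMI of any chain. The thinning left out 51 and 43 shallower macrophages.

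The promoter stretches of C1qb and C1qc are shown because the 3 chain genes had nearly the same pattern over classes, with Pearson r between 0.963 and 0.978 over 14 points (7 classes in 2 libraries, on log2(CPM + 1)). The stretches of C3 and C1s1 are shown as components with another source. They are from RefSeq's table on GRCm38.p6, which held 5 of the 9 components, and only bases outside the annotated gene are printed. All run 5′ to 3′ on the minus strand. The first covers chr4:136886201-136886450 (C1qb), the second chr4:136893066-136893164 (C1qc), the next chr17:57228137-57228386 (C3) and the last chr6:124542360-124542609 (C1s1). Capitals mark GAGGAA or its reverse complement TTCCTC, a purine-rich core of the kind bound by ETS factors such as the macrophage factor PU.1.
C1qb: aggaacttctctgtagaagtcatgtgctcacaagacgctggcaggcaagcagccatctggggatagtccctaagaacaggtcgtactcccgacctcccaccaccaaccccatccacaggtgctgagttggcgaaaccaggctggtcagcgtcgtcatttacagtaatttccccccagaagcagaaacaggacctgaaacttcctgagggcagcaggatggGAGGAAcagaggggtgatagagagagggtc
C1qc: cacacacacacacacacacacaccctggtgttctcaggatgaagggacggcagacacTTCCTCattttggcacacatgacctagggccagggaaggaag
C3: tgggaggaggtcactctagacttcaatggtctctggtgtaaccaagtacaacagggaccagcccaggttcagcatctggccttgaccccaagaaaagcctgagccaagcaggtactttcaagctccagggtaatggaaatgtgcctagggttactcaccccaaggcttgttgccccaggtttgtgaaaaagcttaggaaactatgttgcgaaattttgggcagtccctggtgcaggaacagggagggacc
C1s1: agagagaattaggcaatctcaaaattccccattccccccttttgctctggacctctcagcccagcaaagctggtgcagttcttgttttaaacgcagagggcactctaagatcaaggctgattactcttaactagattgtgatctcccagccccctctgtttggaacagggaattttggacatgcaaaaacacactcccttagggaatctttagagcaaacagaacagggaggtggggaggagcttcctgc
The core lies 30 to 25 bases before the RefSeq start of C1qb and, on the other strand, 193 to 188 bases before that of C1qc. It was not found in the C3 and C1s1 stretches. Over all 32851 promoters of the table, 23.2% hold it on either strand within 250 bases before the start, so it is a common sequence. TTCNNNGAA, the form bound by STAT factors, is held by 7.02% of promoters and was not found in the 4 stretches printed, of which that of C1qc has only 99 bases and so gives less room for a match. A match describes the letters only.

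C1q UMIs were also read outside macrophages, at a low level. The summed level of the 3 chains in stromal cells was 57.9 CPM in TrkA WT and 25.9 CPM in TrkA F592A, which is 0.596% and 0.318% of the macrophage level. In endothelial cells it was 0.579% and 0.658% of that level, and in mural cells 1.51% and 0.613%. C1qb gave 44.9% and 43.0% of the C1q UMIs in macrophages. Its share was somewhat higher in stromal cells, at 47.7% (46.7 to 48.7) and 47.2% (45.5 to 49.0), and the intervals do not hold the macrophage values. In TrkA WT it was also higher in endothelial cells (50.9%, 45.9 to 55.9), mural cells (50%, 46.6 to 53.4) and neutrophils (60.2%, 51.1 to 68.7). In TrkA F592A the intervals of these 3 classes held the macrophage value, with shares of 42.4% (38.1 to 46.8), 45.3% (40.1 to 50.5) and 40.9% (26.3 to 56.7).

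Outside macrophages, few cells had UMIs of every chain of C1q. At 2000 UMIs per cell, 9.07% of TrkA WT and 3.89% of TrkA F592A stromal cells had a UMI of any chain. The share was 13.5% and 7.08% in endothelial cells, 33.8% and 7.79% in T or NK cells and 38.7% and 18.1% in neutrophils, the last 2 being cells not known for making C1q. Median UMIs before thinning were 22031.5 and 24191 in stromal cells but 3675 and 4852 in T or NK cells and 2498 and 3063 in neutrophils. The 8 macrophage markers summed to 44.2% and 24.0% of their macrophage level in neutrophils and to 2.17% and 2.38% in stromal cells. All 3 chains together were found in at most 0.506% of the thinned cells of any class other than macrophages. The stromal shares lay below those in T or NK cells and neutrophils, and no expression of C1q by stromal cells is read from them.

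C1r and C1s are the proteases that C1q carries, and their genes lie on chromosome 6 on opposite strands with 6901 bases between them (C1ra at chr6:124512405-124523443, C1s1 at chr6:124530345-124542359). C1ra stood at 69.4 CPM in TrkA WT and 81.4 CPM in TrkA F592A stromal cells, at 58.6 and 45.0 CPM in mural cells and at 3.75 and 3.09 CPM in macrophages. C1s1 was highest in mural cells, the pericytes and smooth muscle cells of vessel walls. It stood there at 259 and 299 CPM, against 135 and 146 CPM in stromal cells and 4.40 and 2.79 CPM in macrophages. Mural cells were 1.93-fold (1.83 to 2.03) and 2.05-fold (1.97 to 2.15) above stromal cells for C1s1. In the same mural cells the summed level of the 8 stromal markers was 8.34% and 6.47% of that in stromal cells.

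At least 1 UMI of C1s1 was found in 87.5% and 92.4% of mural cells and in 62.3% and 68.2% of stromal cells. Thinned to 2000 UMIs the shares were 39.6% and 43.8% in mural and 21.2% and 23.8% in stromal cells. Since mural cells were few, stromal cells still gave most of the C1s1 UMIs, 91.4% in TrkA WT and 87.4% in TrkA F592A, with 6.66% and 10.7% from mural cells. The near copies C1rb and C1s2 held at most 0.309% of the UMIs of each pair, so little can have been split between them.

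C2 and C4b encode the proteins that C1s cleaves. C2 followed C1s1 in being highest in mural cells, at 72.0 CPM (431 UMIs) in TrkA WT and 50.5 CPM (374 UMIs) in TrkA F592A. Stromal cells stood at 32.7 and 35.2 CPM, and macrophages at 1.05 and 1.74 CPM with only 29 and 40 UMIs. Mural cells were 2.20-fold (1.99 to 2.43) above stromal cells in TrkA WT and 1.44-fold (1.29 to 1.59) in TrkA F592A. The C2 gene (chr17:34862604-34898265) ends 85 bases from Cfb (chr17:34856374-34862518) on the same strand. A joint transcript annotated over both genes, Gm20547, is not in the count tables, and the antisense gene Zbtb12 that overlaps C2 had 760 and 617 UMIs of its own.

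C4b, at chr17:34728380-34743882, stood at 97.8 CPM in TrkA WT and 127.5 CPM in TrkA F592A stromal cells. Macrophages came next with 18.9 and 37.1 CPM. Mural cells stood at 6.68 and 14.7 CPM and endothelial cells at 2.82 and 4.18 CPM. Stromal cells gave 95.7% and 93.6% of the C4b UMIs. The near copy C4a held at most 0.241% of the UMIs of the pair.

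**Figure D2:**
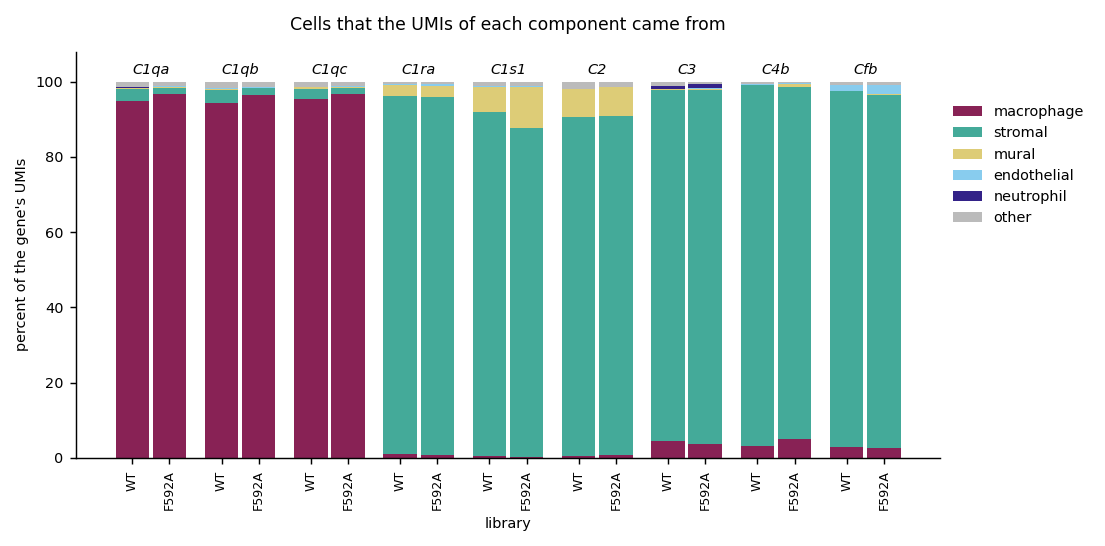
Percent of each component's UMIs that came from each class of cells, in bars that add to 100, for the 2 libraries. Macrophages gave at least 94.4% of the UMIs of each C1q chain, and stromal cells at least 87.4% of those of each other component.

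C3 is the protein on which all complement pathways meet, and its gene lies at chr17:57203970-57228136. Stromal cells stood at 97.9 CPM in TrkA WT and 131.8 CPM in TrkA F592A and gave 93.4% and 94.0% of the C3 UMIs. The level was higher still in neutrophils, at 261 CPM (113 UMIs) and 371 CPM (184 UMIs), which is 2.67-fold (2.20 to 3.21) and 2.81-fold (2.42 to 3.25) above stromal cells. C3 was found in 61 of 171 and 67 of 126 neutrophils, with no more than 7 and 9 UMIs in a single cell, and the 5 cells with most UMIs held 23.9% and 22.3% of them. The 8 stromal markers stood at 6.17% and 3.31% of their stromal level in the same neutrophils. Thinned to 2000 UMIs, 33.8% and 41.4% of neutrophils had a C3 UMI, against 11.9% and 14.2% of stromal cells and 0% and 1.30% of 65 and 77 T or NK cells.

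Macrophages stood at 27.1 and 28.0 CPM for C3, 3.62-fold (3.36 to 3.90) and 4.71-fold (4.36 to 5.11) below stromal cells. At least 1 C3 UMI was found in 16.9% and 21.4% of macrophages. The 8 stromal markers summed to 1327 and 1088 CPM in macrophages, 1.79% and 1.38% of their stromal level. Lymphatic endothelial cells stood at 46.6 and 14.4 CPM, which rests on 41 and 12 UMIs.

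Cfb was highest in stromal cells, at 123 CPM in TrkA WT and 114 CPM in TrkA F592A. Endothelial cells were next, at 45.4 and 37.5 CPM, and stromal cells were 2.72-fold (2.44 to 3.04) and 3.05-fold (2.75 to 3.39) above them. Lymphatic endothelial cells stood at 34.1 and 16.9 CPM, and the first of these could not be told from the endothelial level in TrkA WT (ratio 1.33, 0.914 to 2.00). Macrophages stood at 21.8 and 17.7 CPM and mural cells at 7.18 and 5.13 CPM. Endothelial cells thus held a component of the alternative pathway at a higher level than macrophages, while C3 stood at only 3.10 and 3.55 CPM in the same endothelial cells.

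Over the 14 points of class and library, C1ra, C1s1 and C2 also went together, with r of 0.938 for C1ra with C1s1, 0.948 for C1s1 with C2 and 0.890 for C1ra with C2. C3 stood apart from them (r between -0.07 and 0.12). Among 7925 other genes, the one with the pattern most like C1qa was Pf4 (r = 0.987), the gene of a platelet chemokine that macrophages also express, followed by C3ar1 (r = 0.981), which encodes the receptor of the C3a fragment. For C1ra it was the mesenchymal transcription factor gene Twist1 (r = 0.976), for C1s1 Meg3 (0.973), for C2 the mesenchymal factor gene Prrx1 (0.980), for C3 the iron exporter gene Slc40a1 (0.937), for C4b Tmem119 (0.921) and for Cfb Kcnj15 (0.947). These values share libraries and class totals and carry no test.

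Between the libraries, macrophage C1q differed little. The log2 ratio of TrkA F592A to TrkA WT was -0.27 for C1qa (interval -0.28 to -0.25), while C1qb stood at -0.32 (-0.33 to -0.30) and C1qc at -0.12 (-0.14 to -0.10). The median over all 5000 genes with at least 20 CPM was -0.07. All 3 chains were on the lower side under each of 11 alternatives, at less than 1.5-fold. C4b differed most, with 18.9 CPM (524 UMIs) in TrkA WT and 37.1 CPM (851 UMIs) in TrkA F592A, a log2 ratio of 0.97 (0.81 to 1.13).

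C4b was the only one of the 6 components above 20 CPM in macrophages that was at least 1.5-fold apart. It passed that level only through TrkA F592A, and it was also 1.5-fold apart with no level asked for. The rule was met upwards by 1.58% and downwards by 1.98% of the 5000 genes. C3 stood at 0.05 (-0.11 to 0.20) and Cfb at -0.30 (-0.49 to -0.12). The other 3 components were below the level the rule asks for, with 104 and 71 UMIs for C1ra, 122 and 64 for C1s1 and 29 and 40 for C2. The C4b ratio lay between 0.87 and 1.05 under the alternatives. The stromal markers summed to 1327 and 1088 CPM in these macrophages, and the part of stromal RNA in the C4b ratio was not tested. Macrophages had a median of 10372 and 13384 UMIs, and at 2000 UMIs each 3.48% and 5.90% of them had a C4b UMI.

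**Figure D3:**
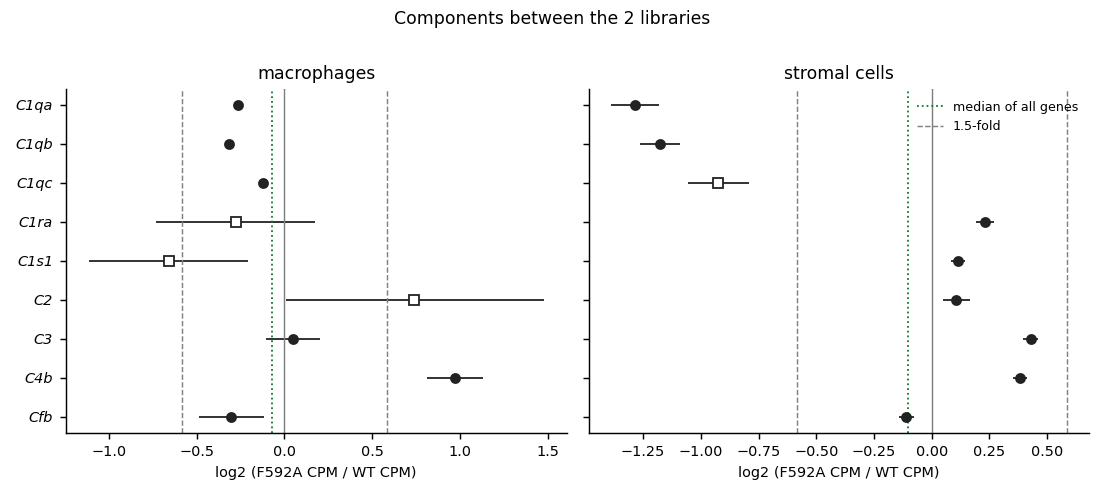
Log2 ratio of TrkA F592A to TrkA WT for each component in macrophages and in stromal cells, with exact 95% intervals of the counts. Filled circles passed the level of 20 CPM and open squares did not, dashed lines mark 1.5-fold and the dotted line the median of all genes. In macrophages C4b stands at 0.97, and in stromal cells the 3 C1q chains stand between -1.28 and -0.92.

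Macrophages were divided further by marker genes into resident (Lyve1, Folr2, Cbr2 and F13a1), Ccr2 and MHC class II, and lipid-associated (Gpnmb, Mmp12, Trem2 and Spp1) cells. C4b was highest in resident macrophages, at 52.1 CPM in TrkA WT and 107 CPM in TrkA F592A. It stood at 10.9 and 24.0 CPM in Ccr2 and MHC class II macrophages and at 7.11 and 13.8 CPM in lipid-associated ones. It was therefore higher in TrkA F592A in all 3, with log2 ratios of 1.04 (0.82 to 1.27), 1.14 (0.74 to 1.54) and 0.95 (0.46 to 1.46). Resident macrophages held at least 1 C4b UMI in 24.8% of 435 TrkA WT and 39.2% of 283 TrkA F592A cells. Within the resident cells the markers of the Ccr2 and MHC class II list summed to 598.5 and 1167 CPM and those of the lipid-associated list to 1207 and 776 CPM. The part of these shifts in the C4b ratio was not tested.

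Resident macrophages also had the highest C1q levels, other than C1qb in TrkA F592A (3591 CPM against 3646 CPM in lipid-associated cells). C1qa stood at 4198 and 3116 CPM in resident, 2884 and 2483 CPM in Ccr2 and MHC class II and 2976 and 2715 CPM in lipid-associated macrophages. C1qc was 1.61 and 1.50 times higher in resident than in Ccr2 and MHC class II macrophages. The spread of C1q over the 3 kinds was therefore small beside that of C4b, whose highest level was 7.33 and 7.77 times its lowest. C3 was highest in Ccr2 and MHC class II macrophages, at 40.0 and 36.6 CPM, and lowest in resident ones, at 15.1 and 12.5 CPM. Cfb in lipid-associated macrophages stood at 13.5 CPM (123 UMIs) and 5.88 CPM (32 UMIs), a log2 ratio of -1.19 (-1.80 to -0.62).

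**Figure D4:**
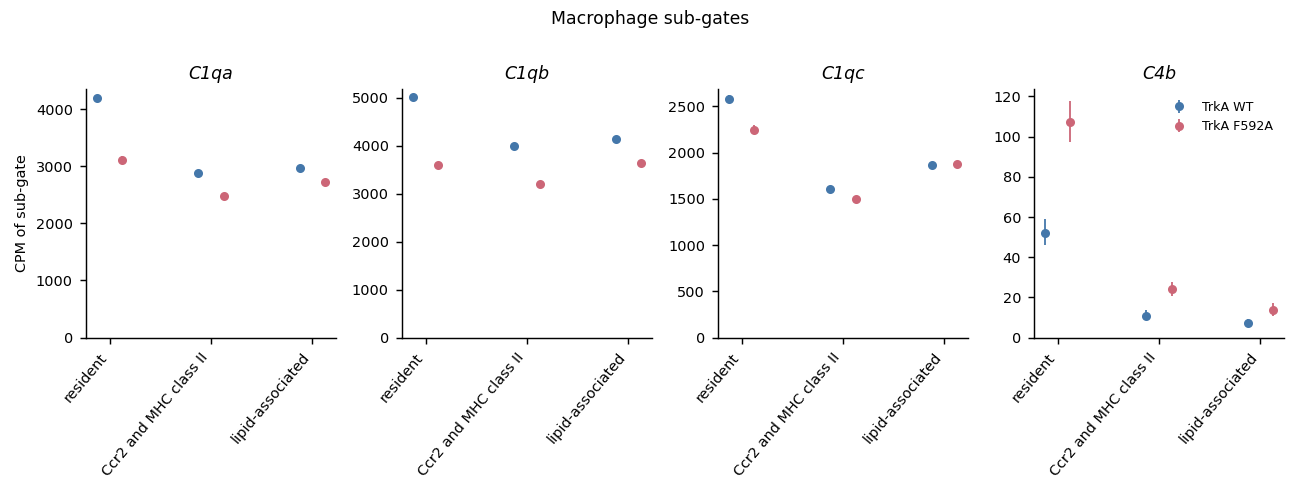
Level (CPM) of the C1q chains and C4b in 3 kinds of macrophages in TrkA WT (blue) and TrkA F592A (red), with exact Poisson 95% intervals, on axes that start at 0. C4b is higher in TrkA F592A in each kind and highest in resident cells, at 52.1 and 107 CPM.

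In stromal cells, none of the 6 components with a stromal source was 1.5-fold apart between the libraries. C3 came nearest, with 97.9 CPM in TrkA WT and 131.8 CPM in TrkA F592A (log2 ratio 0.43, 0.40 to 0.46), followed by C4b with 97.8 and 127.5 CPM (0.38, 0.35 to 0.42). C1ra stood at 0.23 (0.19 to 0.27), C1s1 at 0.11 (0.09 to 0.14), C2 at 0.11 (0.05 to 0.17) and Cfb at -0.11 (-0.14 to -0.08). Over the 1408 and 957 stromal cells with no UMI of a macrophage marker, C3 stood at 0.77 and C4b at 0.60, both beyond 1.5-fold. The median over all 5461 genes with at least 20 CPM was -0.10. The rule was met by 1.83% of them upwards and 1.83% downwards.

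The 2 components that met it in stromal cells were C1qa and C1qb, both lower in TrkA F592A. C1qa had 3165 and 1016 UMIs (log2 ratio -1.28, -1.39 to -1.18) and passed the level of 20 CPM only through TrkA WT and only just, at 20.0 CPM. C1qb had 4367 and 1510 UMIs (-1.18, -1.26 to -1.09). C1qc stayed under 20 CPM, with 1628 and 671 UMIs (-0.92, -1.05 to -0.79). In mural cells all 3 chains met the rule, C1qa with 40.6 and 15.9 CPM, C1qb with 73.2 and 22.6 CPM and C1qc with 32.6 and 11.3 CPM, where 7.22% of 5789 genes did so downwards and 3.99% upwards. Neither endothelial component above 20 CPM met it (C1qb and Cfb, where 2.1% of 5757 genes met it upwards and 7.57% downwards), nor did C3 in neutrophils (14.0% upwards and 14.4% downwards of 1123 genes), at a log2 ratio of 0.51 (0.16 to 0.86). No component had 100 UMIs in T or NK cells, where 8.82% of 998 genes met the rule upwards and 17.3% downwards, or in lymphatic endothelial cells, where 5.55% and 16.5% of 2559 genes did.

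Most of the macrophage markers were lower too. Of the 8, 7 were lower in TrkA F592A stromal cells, with a median log2 ratio of -0.72, among them Ms4a7 (7.31 and 3.56 CPM) and Adgre1 (2.09 and 1.12 CPM). The other marker was higher, the sum of the list was 144 CPM in TrkA WT and 156.5 CPM in TrkA F592A, and no marker was at 0. In mural cells 8 of 8 were lower, with a sum of 153.5 and 93.2 CPM. Barcodes that failed the cell filter held 931.5 CPM of C1q in TrkA WT and 542.5 CPM in TrkA F592A. Their part in the stromal and mural C1q ratios was not tested.

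Stromal cells were divided by marker genes into 7 kinds with at least 50 cells in each library, and the 6 stromal components differed more between these than between the libraries over all stromal cells. Adventitial fibroblasts (Pi16, Dpp4 and Cxcl14, 92 and 126 cells) had the highest level of C3, at 593 and 551 CPM, of C4b, at 601 and 525 CPM, of Cfb, at 621 and 499 CPM, and of C1ra, at 217 and 222.5 CPM. Tenocytes (Tnmd, Kera and Chodl, 790 and 619 cells), the cells of the tendon proper, had 22.4 and 17.4 CPM of C3, 17.7 and 11.8 CPM of C4b and 34.6 and 18.5 CPM of Cfb, the lowest of the 7 kinds for each. Highest over lowest was 34.0-fold and 44.5-fold for C4b, 26.5-fold and 31.6-fold for C3 and 5.85-fold and 5.54-fold for C1ra.

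At 2000 UMIs per cell, 52.7% and 41.6% of adventitial cells had a C3 UMI, against 2.90% and 1.97% of tenocytes. Fibrochondrocytes (Acan, Sox9 and Rbp4) also stood low for C3, at 24.4 and 23.0 CPM, but had more C1s1 than tenocytes (80.5 and 74.5 against 30.6 and 33.3 CPM) and more C2 (25.2 and 24.6 against 10.6 and 9.08 CPM). They also stood above tenocytes for C4b (26.65 and 31.7 against 17.7 and 11.8 CPM) and Cfb (43.3 and 46.0 against 34.6 and 18.5 CPM). C1s1 was high in adventitial cells (442 and 389 CPM) and in Gdf10 fibroblasts (Gdf10, Hmcn2 and Eln, 64 and 240 cells, 408 and 431 CPM). Their intervals overlap in TrkA WT and, narrowly, in TrkA F592A (366.8 to 411.5 and 411.1 to 451.3 CPM). C2 was highest in Gdf10 fibroblasts, at 165 and 177 CPM against 70.7 and 94.9 CPM in adventitial cells. The order of the kinds was therefore not one for all components.

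Over the 7 kinds and these 6 components, the largest log2 ratio between the libraries was that of C3 in Cd55 fibroblasts (Cd55, Prss23 and Efemp1, 631 and 300 cells). It stood there at 122 CPM in TrkA WT and 425 CPM in TrkA F592A, a log2 ratio of 1.80 (1.72 to 1.89), and C4b at 210 and 407 CPM, a ratio of 0.96 (0.89 to 1.03). C1ra stood at 0.69, C2 at 0.66, C1s1 at 0.37 and Cfb at 0.15. At least 1 C3 UMI was found in 34.5% and 57.0% of these cells, and in 13.5% and 31.7% at 2000 UMIs per cell. The markers of the adventitial list summed to 697 CPM in TrkA WT and 1729 CPM in TrkA F592A Cd55 fibroblasts, a log2 ratio of 1.31, and those of the repair list (Ptn, Mdk and Penk) to 342.5 and 196 CPM. Median UMIs were 23004 and 23924.5. The part of the adventitial markers in the C3 and C4b ratios was not tested.

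**Figure D5:**
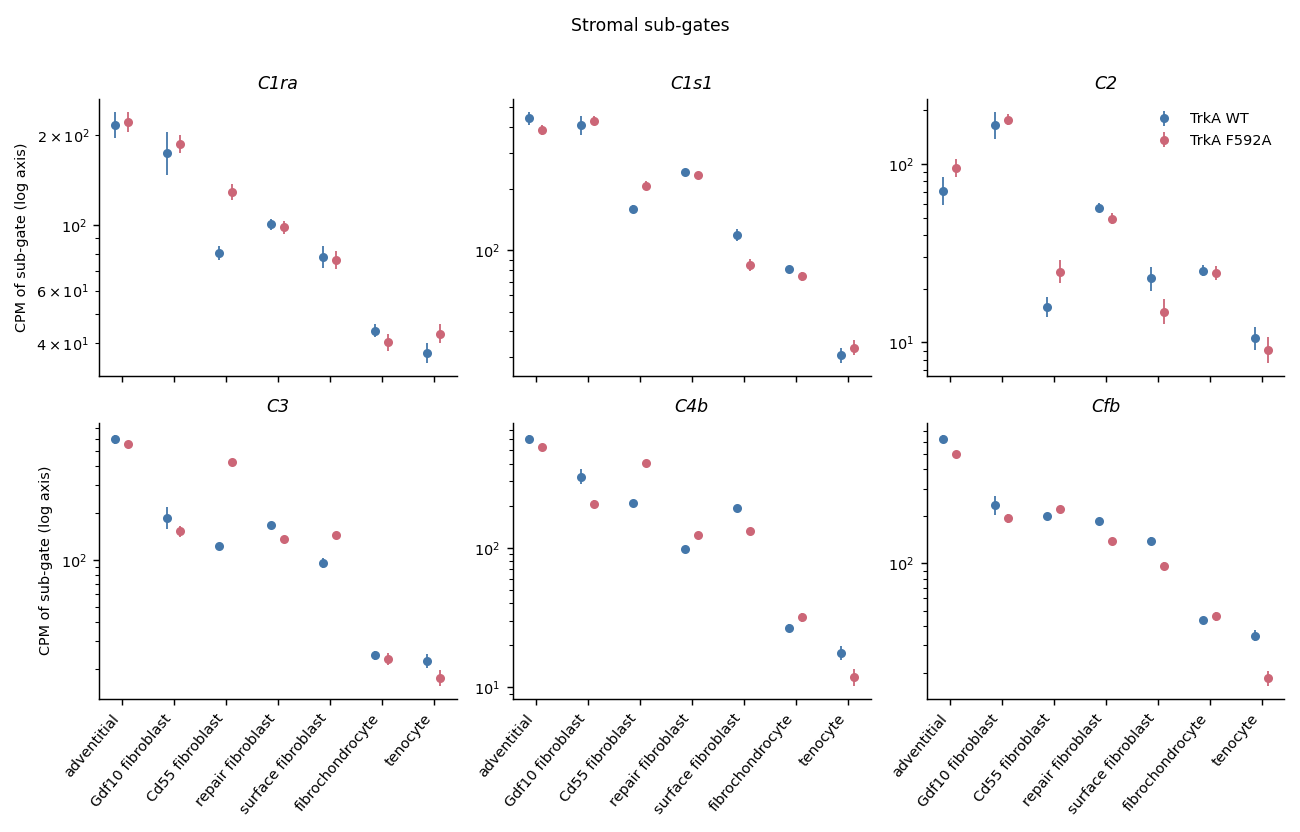
Level of the 6 stromal components (CPM, log axis) in 7 kinds of stromal cells, TrkA WT in blue and TrkA F592A in red, with exact Poisson 95% intervals. Adventitial cells stand high and tenocytes low, and C3 in Cd55 fibroblasts is at 122 CPM in TrkA WT and 425 CPM in TrkA F592A.

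C3 was lower in 5 of the 7 kinds, with an interval below 0 in 3 of them, although it was higher over all stromal cells. It was higher in Cd55 fibroblasts and surface fibroblasts (Angptl7 and Prg4, 95.4 and 144 CPM). Cfb was lower in 5 of 7, by most in tenocytes (34.6 and 18.5 CPM, -0.91, -1.11 to -0.70). C4b was lower in 4 of 7, by most in Gdf10 fibroblasts (322 and 206 CPM, -0.64, -0.84 to -0.44). With the 7 kinds weighted equally, the log2 ratio was 0.26 for C3 and -0.03 for C4b, where all stromal cells together gave 0.43 and 0.38. The 7 kinds leave out 2412 TrkA WT and 1760 TrkA F592A stromal cells (35.6% and 36.2%) that stayed unassigned to a kind. In those cells C3 stood at 0.27 (0.22 to 0.32), C4b at 0.35 (0.30 to 0.41) and Cfb at -0.12 (-0.17 to -0.07). The kinds made up unlike shares of the libraries. Gdf10 fibroblasts were 0.946% of TrkA WT and 4.94% of TrkA F592A stromal cells, adventitial cells 1.36% and 2.59%, and Cd55 fibroblasts 9.32% and 6.17%.

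Cycling stromal cells were too few in TrkA F592A to compare (201 and 49 cells), and C3 stood in them at 63.2 CPM (477 UMIs) in TrkA WT and 16.1 CPM (33 UMIs) in TrkA F592A. A further 62 TrkA WT stromal cells carried the interferon genes Ifit1, Ifit3 and Isg15, with only 7 in TrkA F592A, too few to compare. In the TrkA WT cells C1s1 stood at 325 CPM, C2 at 111 CPM and Cfb at 182 CPM, above their levels over all TrkA WT stromal cells (135, 32.7 and 123 CPM), while C3 stood below, at 70.9 CPM (56.5 to 87.7). C4b stood at 75.1 CPM.

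The 6 stromal components were also carried together by single cells. With stromal cells thinned to 10000 UMIs, 24.9% of 6056 TrkA WT and 23.0% of 4370 TrkA F592A cells had no UMI of any of the 6, and 4.56% and 5.49% had UMIs of all 6, with a median of 2 components. The thinning left out 712 and 490 shallower cells. Of the TrkA WT cells with C3, 61.1% (58.6 to 63.6) also had C4b, against 20.7% (19.5 to 21.9) of those without C3, and the shares in TrkA F592A were 68.6% and 20.7%. Of cells with C1ra, 70.0% and 72.2% also had C1s1, against 36.0% and 38.2% of those without. For every pair of the 6, the share with the second component was at least 1.66 times higher in cells with the first than in cells without it.

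The wider pathway was read from a list of 42 other complement genes, of which 15 reached 20 CPM in macrophages or stromal cells. The properdin gene Cfp, whose product stabilises the alternative pathway enzyme, was highest in macrophages, at 175 and 211 CPM. Neutrophils came next for Cfp, at 134 and 133 CPM, and stromal cells stood at 2.15 and 1.95 CPM. The receptor genes C3ar1 (403 and 431 CPM) and C5ar1 (345 and 359 CPM) were also high in macrophages. For C5ar1 neutrophils stood higher (652 and 548 CPM). Regulators stood on the stromal side. Serping1, the inhibitor of C1r and C1s, stood at 547 and 655 CPM in stromal cells, 672 and 538 CPM in mural cells and 9.81 and 9.33 CPM in macrophages. Cd55, which takes apart the C3-cleaving enzymes, stood at 115 and 90.4 CPM in stromal cells, and it was also 1 of the markers that defined Cd55 fibroblasts. Cd93, earlier named as a C1q receptor, was highest in endothelial cells (931 and 940 CPM).

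None of the terminal components on the list, Hc, C6, C7, C8a, C8b, C8g and C9, reached 20 CPM. Between the libraries, 0 of the 10 list genes above 20 CPM in macrophages were 1.5-fold apart, with a median log2 ratio of 0.004, against -0.07 over all genes. In stromal cells the log2 ratio was 0.26 for Serping1 and -0.35 for Cd55.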

How the data were processed

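Both libraries were made with the 10x Genomics droplet method, per the labels. The deposited values are whole UMI counts for 32285 features per barcode. The authors made them with Cell Ranger, in version 6.0.1 per the file headers but 2.1.1 per the submitters' processing notes, which also list Seurat and the build mm10. Which of the 2 versions was used could not be settled.

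Barcodes with at least 500 genes, 1000 UMIs and at most 15% mitochondrial UMIs were kept, and doublets called by Scrublet in scanpy 1.11.5 (342 TrkA WT and 220 TrkA F592A) were left out. A cell went to the marker list with the highest mean scaled expression if it led by at least 0.1, and 464 and 376 cells stayed unassigned. Of the macrophages 72 and 42 cells, and of the stromal cells 50 and 45, led by less than 0.15. The UMIs of all cells of a class in a library were added up and divided by the class total. Intervals are exact Poisson for levels, exact conditional binomial for ratios and exact Clopper-Pearson for shares, all at 95% and for counting error only. Genes were measured with at least 100 UMIs over both sides, and called at 1.5-fold between libraries or 2-fold between classes with at least 20 CPM in the higher side. The steps were tested on simulated data. Other complement genes are named from a list of 42 where they reached 20 CPM in macrophages or stromal cells, and for likeness the genes with the highest r. The components, lists, kinds of cells and rules were chosen with earlier results of these data known. Alternatives covered the gates (a lead of 0.25, or Leiden clusters made without the components), filters, doublets, thinning and scaling. The F592A substitution is not read by gene counts, so the labels could not be checked by the targeted gene. The values of some genes on these lists are not reported here.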

Additional observations from a re-analysis of the deposited data

Results flagged for a closer look

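Kinds of stromal cells differed in the direction of the ratio between the libraries, and these differences were not tested, since each genotype is 1 pooled library. For C3 the log2 ratio was 1.80 in Cd55 fibroblasts and -0.36 in tenocytes. For C4b it was 0.96 in Cd55 fibroblasts and -0.64 in Gdf10 fibroblasts. C2 stood at 0.66 in Cd55 fibroblasts and -0.62 in surface fibroblasts, and C1ra at 0.69 in Cd55 fibroblasts and -0.13 in fibrochondrocytes. Cfb stood at 0.15 in Cd55 fibroblasts and -0.91 in tenocytes.

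Barcodes that failed the cell filter, which enter no comparison, held complement UMIs. The C1q chains summed to 931.5 CPM in 3269 TrkA WT barcodes and 542.5 CPM in 2013 TrkA F592A barcodes, where 3 counts would be 0.380 and 0.656 CPM. C3 stood there at 68.5 and 92.3 CPM.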

How the results depend on the processing

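No paired analysis was possible because each genotype is 1 pooled library. The count of components called lower in TrkA F592A stromal cells was 2 as reported. It was 1 with a lead of 0.25 between marker lists, with Leiden clusters, with at most 10% mitochondrial UMIs and with the kinds of stromal cells weighted equally. The ratios of C1qa and C1qb were beyond 1.5-fold in 12 of 12 alternatives, so the level of 20 CPM set these counts. Over the 1408 and 957 stromal cells with no UMI of a macrophage marker, an alternative chosen after seeing the data, 0 were called lower and 2 (C3 at 0.77 and C4b at 0.60) higher. In macrophages 2 were called higher and 1 lower with no level asked for, and 0 higher with a rule of 2-fold. Without the level, C2 (29 and 40 UMIs) joined C4b as higher and C1s1 (122 and 64 UMIs) was lower. Both C2 and C1s1 lay far below 20 CPM in macrophages. The share of all genes called under these changed rules is not given, so the counts are not read as a result about the components. C4b in stromal cells reached -0.03 with kinds weighted equally. The stromal C1qa ratio was -0.76 with doublets kept. Small classes rest on few UMIs, with 113 and 184 of C3 behind the neutrophil level.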
